A study of Apis mellifera with 6 samples.

Results

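A set of 86 genes kept nearly the same value in all 6 honey bee midgut libraries of a heat shock experiment, out of 10151 genes with values. The set was chosen by the measured values themselves. A gene was taken into it when its mean over the 6 libraries was at least 1000 normalized counts and its highest value was at most 1.2 times its lowest. Genes among the 100 highest by mean at 35 °C, genes whose IDs start with RpL, RpS or CYP, and LOC725081 and LOC411679 were left out. A normalized count is the number of reads on a gene divided by a size factor that brings the libraries to a common scale. The rule reads the value of every library at both temperatures, so the small spread of these genes and their small fold changes follow from the choice and are given as a description.

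The study examined the transcriptional response of the honey bee midgut to proteotoxic stress, here to heat. Each library was made from poly(A)-selected RNA of the midgut of a single bee collected at the landing board of an outbred colony in which Apis mellifera subspecies are mixed. There were 3 bees held at 35 °C, the temperature at which caged bees were kept, and 3 held at 45 °C. By the labels, all 6 were given sucrose solution with 0.5% DMSO, and the duration was 4 h for both temperatures. The 35 °C libraries are controls taken over from an earlier series and the 45 °C libraries are not, so the effect of temperature and that of the source of the libraries cannot be told apart. The methods give a 24 h feeding for controls of the chemical treatments, which leaves it unclear which duration the 35 °C bees had.

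Genes whose transcript level stays level across samples serve as reference genes in quantitative PCR, where the level of a gene of interest is expressed relative to them. Such genes usually act in processes that every cell runs, such as translation, protein turnover, transport and the cytoskeleton, although no gene is constant in every tissue and treatment. The midgut is the main site of digestion and absorption in the bee, and heat shock changes the levels of many transcripts there. The study took β-actin as its qPCR reference, and reported similar β-actin threshold cycles at both temperatures.

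The libraries held 23305758 to 26279130 reads on listed genes at 35 °C and 24690115 to 26921417 at 45 °C. Between temperatures, limma called 1327 genes higher and 501 genes lower at 45 °C at the threshold used in the study (adjusted p below 0.05, log2 fold change beyond 1 in size), which is 18.0% of the genes tested. The midgut label was set beside alpha-glucosidase genes with a symbol, taken here as genes of digestion. The sources used here do not say in which tissue each of them is made. The summed value of AGLU2, Hbg2 and Hbg3, which encode alpha-glucosidases, was 1029254 to 1447593 normalized counts at 35 °C, and 1310042 to 1576101 at 45 °C. Nearly all of it came from AGLU2 and Hbg2, since Hbg3 had 1089 to 1578 at 35 °C and 1863 to 1982 at 45 °C. The log2 fold change of Hbg3 was 0.50 (limma adjusted p = 0.0376, short of the fold change threshold). Markers of other tissues were present too, with lower sums. TpnI ran from 849 to 1819 over the 6 libraries and TpnT from 863 to 1957. Both were near the level of Hbg3, and above the median mean of 353 over all genes. The sum of TpnI and TpnT, troponins of muscle, was 1711 to 3327 and 2854 to 3519, and that of 5 fat body storage and yolk protein genes was 643 to 834 and 923 to 1405. Within this list Vg and Hex110 were called higher at 45 °C (log2 fold changes 3.60 and 1.66, limma adjusted p = 0.0246 and 0.00106). HEX70b was lower (-0.91, limma adjusted p = 0.0297, short of the fold change threshold), while Hex70a and Hex70c were at 0.18 and 0.0035 (limma adjusted p = 0.608 and 0.997). The sum of 3 royal jelly protein genes was 1426 to 2712 at 35 °C and 1293 to 2199 at 45 °C, and that of 4 neuronal receptor genes was 292 to 348 and 226 to 368. None of these 17 markers was at 0 in all libraries. Their part in the values of the constant genes was not tested. In whole midguts, fewer cells of a type and less RNA per cell cannot be told apart.

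The limits were applied in steps. Of 2560 genes with a mean of at least 1000, the ratio of highest to lowest was at most 1.2 among the 3 bees at 35 °C for 1026 genes and among the 3 bees at 45 °C for 891. It was at most 1.2 within each temperature for 437 genes, and over all 6 libraries for 91. A ratio over 6 libraries is never below the ratio within 3, so the order of these counts is fixed beforehand. Among the 346 genes that were level within each temperature but not over 6, 152 had the higher mean at 45 °C and 194 at 35 °C. Limma called 34 of the 346 higher and 7 lower, beside 1828 of all 10151 genes (18.0%) in either direction. The choice of the 346 reads the difference between temperatures, so these counts are a description. From the 91 genes, AGLU2, LOC102655329 and LOC724721 were left out as being among the 100 highest, and RpL32 and Rpl41 as ribosomal protein genes, which gave the 86.

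Little is recorded about what the 86 genes encode. All carry LOC identifiers without a symbol in the files and in the RefSeq gene table of assembly Amel_HAv3.1, while 318 of the listed genes have a symbol, so no name or role is given to them here. All 86 were found in that table. It marks 85 of them (98.8%) as protein coding and LOC107964202 as a lncRNA. Among the 2512 genes of a mean of at least 1000 that the table holds, 99.0% were protein coding. LOC107964202 had 3537, 2978 and 3395 normalized counts at 35 °C and 3438, 2973 and 3259 at 45 °C. The groups overlapped, and the second bee was the lowest at each temperature.

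**Figure D1:**
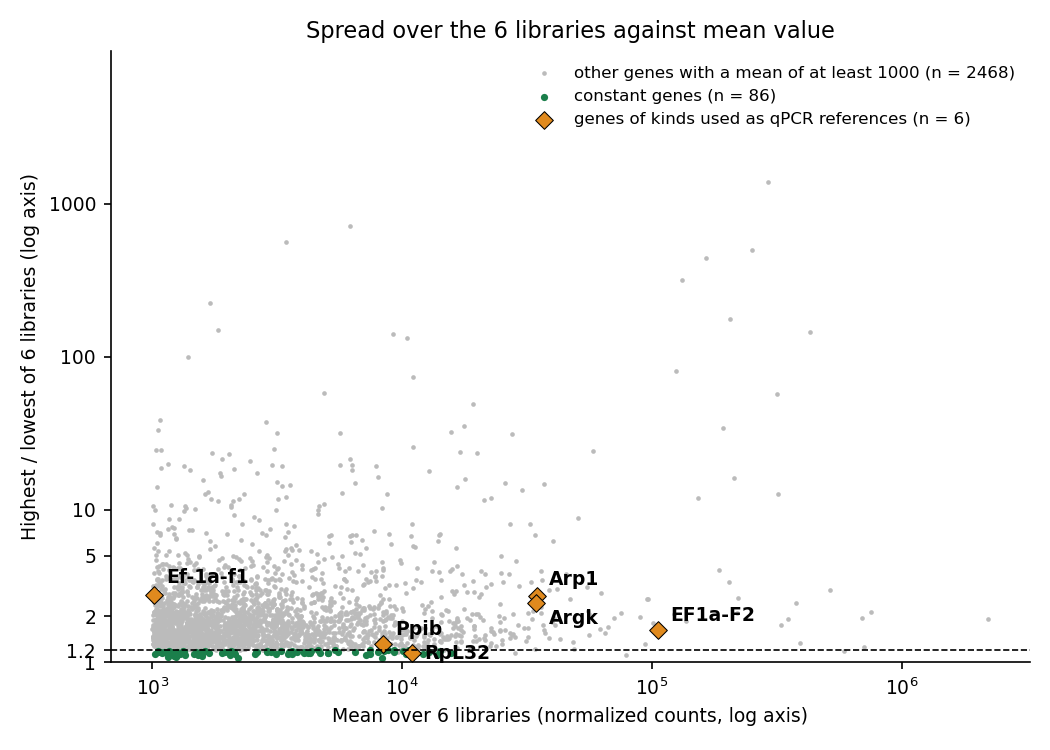
Ratio of the highest to the lowest of 6 libraries (vertical, log axis) against the mean in normalized counts (horizontal, log axis) for genes with a mean of at least 1000. Each point is a gene, green points are the 86 constant genes, diamonds are 6 genes of kinds used as qPCR references, and the dashed line is the ratio of 1.2; RpL32 lies below the line and the other 5 diamonds above it.

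The steadiest of the 86 was LOC409427, with 2195, 2243 and 2196 normalized counts at 35 °C and 2109, 2246 and 2204 at 45 °C. Its highest value, in the second bee at 45 °C, was 1.06 times its lowest, in the first bee at 45 °C, and the 3 values at 35 °C lay inside the range at 45 °C. LOC725312 followed at a ratio of 1.07, with 8524, 8159 and 8095 at 35 °C and 8652, 8089 and 8099.7 at 45 °C. In both groups of this gene the first bee was the highest. LOC412103 had 1100.4, 1193 and 1160.2 at 35 °C and 1135, 1171 and 1144 at 45 °C, a ratio of 1.08. Here the range at 45 °C lay inside the range at 35 °C.

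LOC412219 had 1263, 1211 and 1223 normalized counts at 35 °C and 1296, 1265 and 1186 at 45 °C, so that its highest and its lowest value both came from 45 °C. LOC410766 showed the opposite, with 1295, 1199 and 1183 at 35 °C and 1234, 1188 and 1245 at 45 °C. LOC413842 had 1609.5, 1642 and 1583 at 35 °C and 1615, 1540.3 and 1495 at 45 °C, and its groups overlapped through the first bee at 45 °C. These 6 were the only members with a ratio of at most 1.1. The median ratio over the 86 was 1.16 and the lower and upper quartiles were 1.14 and 1.18, so most members lay nearer to the limit than to 1.

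The other 4 of the 10 steadiest had ratios of 1.11 to 1.12. LOC552494 had 7601, 7230.0 and 7085 normalized counts at 35 °C and 6936, 6824 and 7112 at 45 °C, with the 2 lowest values at 45 °C. LOC551331 had 1396, 1327 and 1320.0 at 35 °C and 1337, 1293 and 1446 at 45 °C, and both its lowest and its highest value were at 45 °C. LOC725105, at 1258, 1274 and 1303 against 1295, 1257 and 1163, was pulled apart by the third bee at 45 °C. LOC102656224, at 1983, 2019.9 and 2171 against 2017, 2181 and 1943, spread about as far in each group. The log2 fold changes of these 10 genes ran from LOC552494 at -0.07 (standard error 0.11) to LOC412219 at 0.02 (standard error 0.11).

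**Figure D2:**
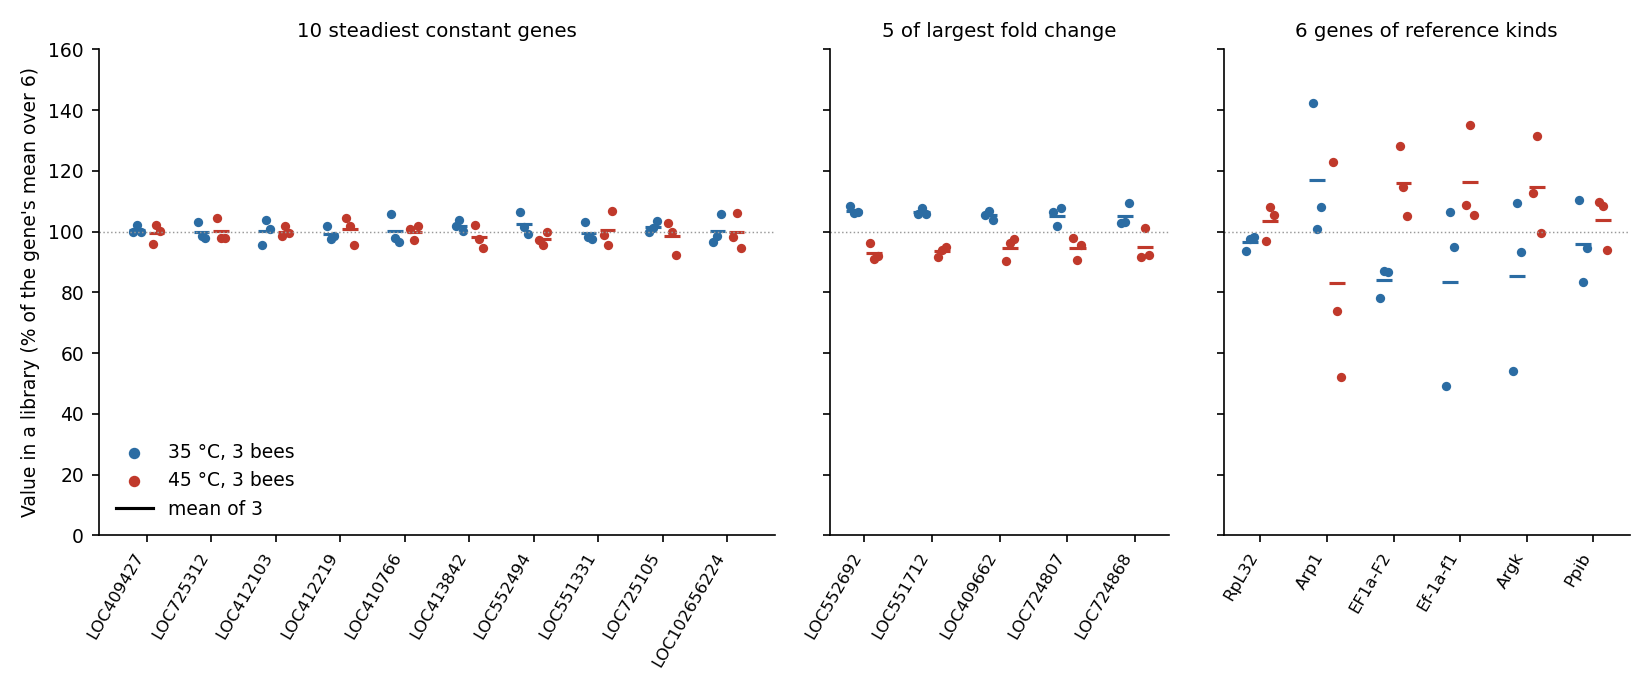
Value in each library as a percentage of the gene's own mean over 6 libraries, for the 10 steadiest constant genes, the 5 constant genes of largest absolute log2 fold change and 6 genes of kinds used as qPCR references. Points are single bees (n = 3 per temperature), short lines are group means and the vertical axis starts at 0; RpL32 is as tight as the constant genes, while Arp1 runs from 49142 to 17983 normalized counts.

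For most of these genes the spread between libraries was larger than the error expected from counting reads. The coefficient of variation over 6 libraries was 2.26% to 7.93% among the 86, with a median of 5.68%, where counting alone would give a median of 1.96%. As a measure of the excess, the chi-square of a gene's reads against the shares set by the size factors was divided by its degrees of freedom, so that 1 stands for counting error. The index was below 1 for 2 members, 0.964 for LOC412103 and 0.985 for LOC409427. It was 1.27 for LOC412219, 1.59 for LOC410766 and 1.91 for LOC413842. These 5 were also the only genes below 2 among all 2560 of a mean of at least 1000, whose median was 127, and all 5 are among the 6 members with the smallest ratios, so their low index follows in part from the choice. The median of the 86 was 7.29, and 39 of them were above 10. The counting error used here treats reads as independent molecules, which reads amplified by PCR are not, so it may be too small. How much of the excess lies between bees was not tested.

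The means of the 86 genes ran from 1024 to 15676 normalized counts, while genes with a mean of at least 1000 reached 2211252. The rule left out the highest genes, so the upper levels of expression are not covered. Median coefficients of variation were 5.46%, 5.56%, 5.80% and 6.12% for members with means of 1000 to 2000, 2000 to 4000, 4000 to 8000 and at least 8000, while the median counting error fell from 2.82% to 0.969%. The limit on the ratio holds the coefficient of variation of any member within a narrow range, so nothing on read depth and spread is read from these values. The classes held 36, 18, 16 and 16 members. Before the exclusions, the genes within the ratio made up 3.25%, 2.49%, 4.64% and 5.48% of all genes in these classes, so the rule did not draw on 1 level of expression alone.

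The member with the highest mean was LOC724369, at 14557, 15672 and 16165 normalized counts at 35 °C and 15465, 16745 and 15453 at 45 °C. It was lowest in the first bee at 35 °C and highest in the second bee at 45 °C. LOC409053, at 12792, 14821 and 14545 against 13969, 13669 and 15261, had the largest index of the set, 58.2. LOC552517 had 14600.2, 13666 and 14644 at 35 °C and 13035, 13956 and 13111 at 45 °C, with the 2 lowest values at 45 °C. LOC552445, at 11668, 13681 and 13343 against 12201, 13398 and 12522, spread more at 35 °C than at 45 °C. LOC552564 had 12504, 11393 and 11410.3 at 35 °C and 11682, 12936 and 12503 at 45 °C. Normalized counts are not divided by gene length, so the order of these means is an order of read counts and not of transcript number.

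At its edges the rule separated genes that hardly differed. Just inside the ratio of 1.2 were LOC411744 at 1.199, LOC409861 at 1.198 and LOC413207 at 1.198. LOC411744 ran from 9651 to 11575 normalized counts, LOC409861 from 8492 to 10176 and LOC413207 from 4922 to 5895. Just outside were Lin-52, named after a subunit of a chromatin complex that controls cell cycle genes, at 1.203, LOC550711 at 1.205 and LOC725528 at 1.205. At the mean of 1000, LOC725068 at 1024 and LOC551712 at 1048 were just inside, and LOC551229 at 972 and LOC551794 at 956 just outside. Lin-52 was the gene with a symbol that came nearest to entering, at 1113, 1125 and 1174 against 1208, 1004 and 1052.

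The rule bounds the difference between temperatures without setting it to 0. Over the 86 genes the log2 fold change of 45 °C against 35 °C ran from -0.20 to 0.12 with a median of -0.02, beside -0.01 over all 10151 genes. It was below 0 for 50 members and above 0 for 36. The median standard error was 0.11, and the 95% interval reached a median of 0.26 to each side. Limma called 0 members, at an adjusted p below 0.05 with or without the fold change threshold, against 18.0% and 39.3% of all genes, and 0 members had an unadjusted p below 0.05. DESeq2 and edgeR on the recovered reads also gave 0 members at an adjusted p below 0.05. The rule had used this contrast, so nothing is read from these counts.

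Complete separation of the temperatures was still possible within a ratio of 1.2. The groups of 3 did not overlap for 14 of the 86, against 53.2% of all genes. Of the 14, 13 were lower at 45 °C and 1 was higher, beside 26.4% and 26.8% of all genes. These counts are again a description, since the choice bounded the values.

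LOC552692 had the largest absolute fold change of the set, with 2228, 2181 and 2192 normalized counts at 35 °C and 1977, 1873 and 1896 at 45 °C. All 3 bees at 45 °C were below all 3 at 35 °C, and the log2 fold change was -0.20 (standard error 0.10, 95% interval -0.44 to 0.04). LOC551712 had 1111, 1131 and 1108 at 35 °C and 959, 986 and 995 at 45 °C, with a log2 fold change of -0.19 (standard error 0.10). Within each temperature both genes were tighter than most members, with ratios of at most 1.06. LOC409662, at 1228, 1244 and 1209.6 against 1053, 1120.0 and 1135, and LOC724807, at 1729.8, 1653 and 1750.0 against 1593, 1473 and 1553, had log2 fold changes of -0.15 (standard errors 0.11 and 0.10). LOC724868 had 10305, 10336 and 10976 at 35 °C and 9180.2, 10136 and 9264 at 45 °C, also -0.15 (standard error 0.12). In these 3 genes too the groups did not overlap. LOC725068 was the single member that stood apart in the other direction, with 1011, 947 and 1007 at 35 °C and 1076, 1075 and 1028 at 45 °C. The highest log2 fold change of the set, 0.12 (standard error 0.11), was that of LOC412366, whose groups overlapped.

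The libraries shared the extreme values of the 86 unequally. The first bee at 35 °C held the highest value for 21 members and the lowest for 14, and the first bee at 45 °C the highest for 19 and the lowest for 14. Bees 2 and 3 at 45 °C held the lowest value for 21 and 19 members and the highest for 7 and 12. The second bee at 35 °C was the lowest for only 7. Averaged over the members, the log2 deviation from a gene's own mean lay between -0.02 and 0.02 in every library. In reads, the 86 genes took 1.67%, 1.66% and 1.68% of the 35 °C libraries and 1.16%, 1.29% and 1.33% of the 45 °C libraries, so their share of all reads was lower at 45 °C in each bee although their normalized counts were level.

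This difference between share and normalized count made the scaling the main choice behind the set. With library size alone, that is, reads divided by all reads on listed genes, 23 genes met the rule and 0 of them were among the 86. The ratio of the 86 then ran from 1.32 to 1.71 with a median of 1.52, and all 86 were lower in every bee at 45 °C than in every bee at 35 °C, which held for 44.1% of all genes under this scaling. Their median log2 fold change was -0.40, against -0.39 over all genes, a difference of -0.01 that was the same with the deposited size factors. At an adjusted p below 0.05 limma gave 58 of the 86 under library size alone, all lower, beside 49.2% of all genes in either direction and 36.9% lower. The 23 genes that met the rule under library size had higher deposited values at 45 °C, with log2 fold changes of 0.25 to 0.58. LOC102655980, the steadiest of them, had deposited values of 1340.0, 1391 and 1479.8 at 35 °C and 1879.9, 1794 and 1794 at 45 °C.

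**Figure D3:**
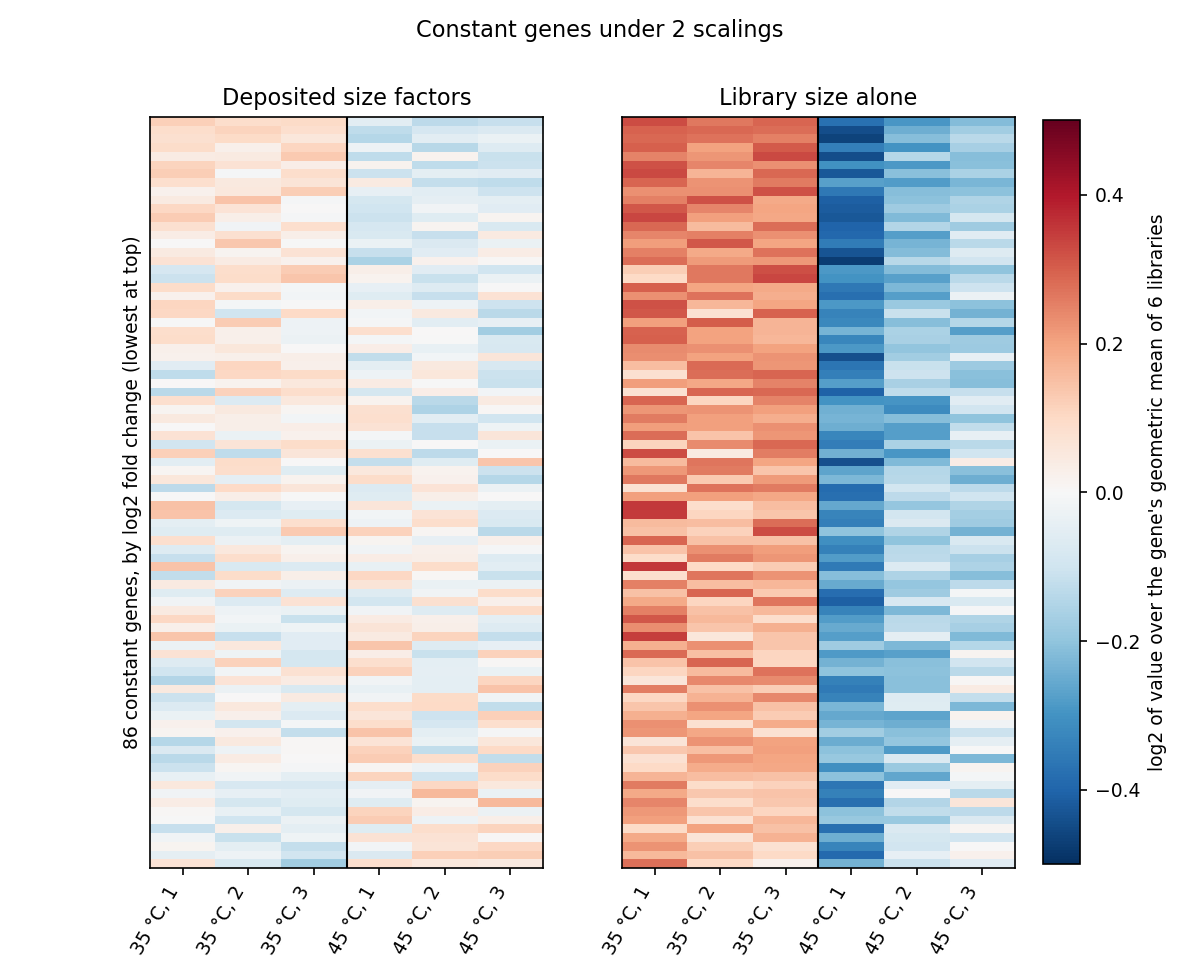
The 86 constant genes (rows, ordered by log2 fold change) in 6 libraries (columns), as log2 of the value over the gene's geometric mean, with the deposited size factors on the left and library size alone on the right. Red is above and blue below the gene's own mean; on the right the 35 °C libraries are above and the 45 °C libraries below for nearly every gene, with median log2 fold changes of -0.02 and -0.40.

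Other scalings lay between. With TMM factors, which like the deposited factors assume that most genes do not change, 83 genes met the rule and 80 of them were among the 86. Upper quartile scaling gave 66 genes, 51 of them shared, and quantile normalization gave 51, 24 of them shared. Library size taken without the 20 highest genes gave 31, of which only LOC725068 was shared, and the median log2 fold change of the 86 was -0.29 there. At an adjusted p below 0.05 limma gave 25 of the 86 under that scaling, beside 46.0% of all genes, and 4 after quantile normalization, beside 42.1%. The 20 highest genes held 34.9% to 37.1% of the reads at 35 °C and 36.5% to 42.5% at 45 °C, and the largest share was in the first bee at 45 °C. A core of 24 members had a ratio of at most 1.2 under the deposited, TMM, upper quartile and quantile scalings alike. It includes 7 of the 10 steadiest, namely LOC409427, LOC412103, LOC412219, LOC410766, LOC413842, LOC551331 and LOC725105. The rest of the 10, LOC725312, LOC552494 and LOC102656224, had ratios of 1.34, 1.39 and 1.21 after quantile normalization. The highest mean in the core was that of LOC408889, 2869 normalized counts, and no member with a mean of at least 4000 is in it. Membership of the core therefore also went with the level of expression.

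**Figure D4:**
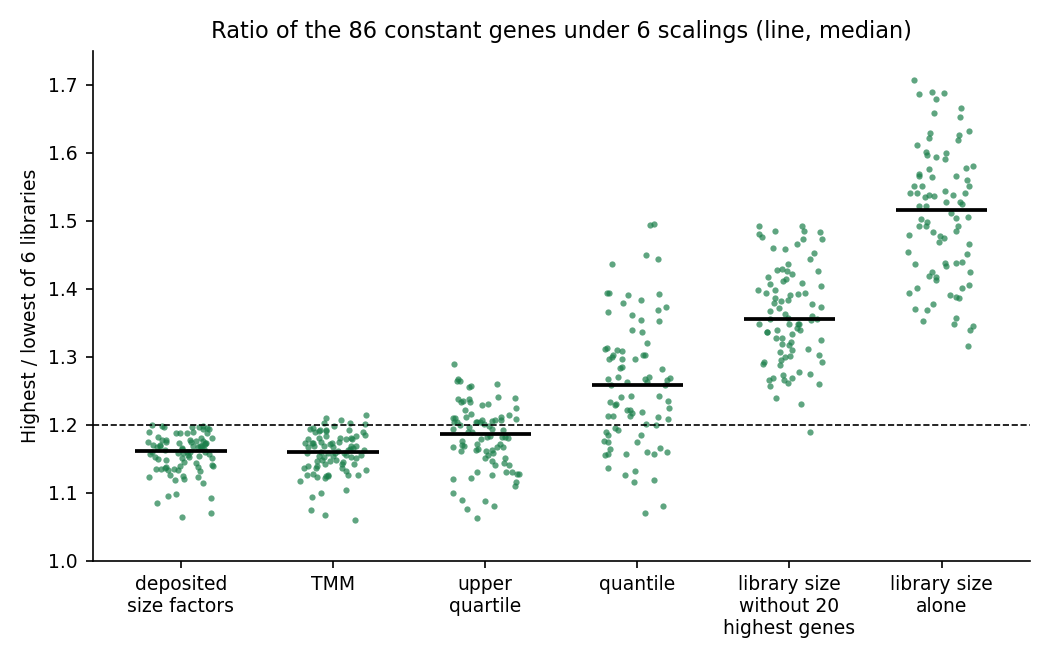
Ratio of highest to lowest of 6 libraries for each of the 86 constant genes under 6 scalings. Points are genes, lines are medians and the dashed line is the ratio of 1.2 used with the deposited values; the median is 1.16 with the deposited factors and 1.52 with library size alone.

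Genes of kinds in common use as qPCR references were looked up by symbol. With the deposited size factors, 5 of the 6 found had a ratio above 1.2, and RpL32 was within it. The rule held the 86 to that limit, so a wider ratio outside it follows from the choice and is no comparison. For part of these genes the order also depends on the scaling. With library size alone EF1a-F2 had a ratio of 1.14, RpL32 of 1.45 and Ppib of 1.46, where the 86 ran from 1.32 to 1.71. Arp1, Ef-1a-f1 and Argk had 3.39, 2.13 and 1.98 there, still above all of the 86. RpL32, which encodes a protein of the large ribosomal subunit, had 10204, 10639 and 10711 normalized counts at 35 °C and 10553, 11779 and 11478 at 45 °C, a ratio of 1.154. Its groups overlapped, and its log2 fold change of 0.10 (standard error 0.12, limma adjusted p = 0.539) turned negative under library size alone, library size without the 20 highest genes and quantile normalization. It met the limits of the rule and was left out by name. Ppib, named after a cyclophilin that assists protein folding in the secretory pathway, had 9238, 6976 and 7919 against 9185, 9088 and 7858, a ratio of 1.32. Its groups overlapped as well.

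Arp1, an actin family gene by its symbol, had 49142, 34877 and 37286 normalized counts at 35 °C and 42436, 25547 and 17983 at 45 °C. The ratio was 2.73, the third bee at 45 °C was the lowest and the first bee at 35 °C the highest, and the groups overlapped. The log2 fold change was -0.57 (standard error 0.31, 95% interval -1.30 to 0.16, limma adjusted p = 0.186). It was -0.28 without the third bee at 45 °C and -0.90 (limma adjusted p = 0.0361) without the first. After quantile normalization Arp1 passed the threshold, with -1.06 and a limma adjusted p of 0.0208. Which gene ID the β-actin primers of the study match is a point on which the sources used here are silent, so Arp1 does not stand for that assay.

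EF1a-F2 encodes an elongation factor that brings aminoacyl-tRNAs to the ribosome, and had 82573, 92078 and 91662 normalized counts at 35 °C and 135534, 121301 and 111059.6 at 45 °C. Every bee at 45 °C was above every bee at 35 °C, with a log2 fold change of 0.46 (standard error 0.20, limma adjusted p = 0.1005), which fell to 0.08 under library size alone and was -0.79 after quantile normalization. Ef-1a-f1, of the same family, had 498, 1081 and 962 against 1102, 1370.0 and 1069, and Argk, an arginine kinase that buffers the energy supply of muscle and other tissues, had 18574, 37598 and 32075 against 38737, 45206 and 34258. In both genes the first bee at 35 °C was far below the other 5, the groups overlapped, and the log2 fold changes were 0.55 and 0.47 (limma adjusted p = 0.164 and 0.208). Argk was at -0.06 after quantile normalization. The other genes on the reference list could not be matched by symbol and are not reported here.

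The rule was also applied to 5 libraries at a time, and the library left out was then read for the genes chosen. The rule applied without the first bee at 35 °C chose 201 genes, of which 86 (42.8%) stayed within 1.2 once that bee was added and 179 within 1.5. Without bee 1, bee 2 or bee 3 at 45 °C it chose 137, 142 and 154 genes, of which 62.8%, 60.6% and 55.8% stayed within 1.2. Without bee 2 or bee 3 at 35 °C it chose 110 and 104, of which 78.2% and 82.7% stayed, and none of them left 1.5. The median absolute log2 deviation of the chosen genes in the bee left out ran from 0.07 for the third bee at 35 °C to 0.21 for the first. The farthest gene was LOC412131, which reached a ratio of 2.13 once the first bee at 45 °C was added, followed by LOC552223 at 2.04 with the first bee at 35 °C. By construction the 86 genes are in each of these choices, and they were all of the genes that stayed within 1.2. The shares therefore differ only through the number chosen, and no share was taken for genes not chosen. They are a description and do not show how the choice would fare in a further bee.

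**Figure D5:**
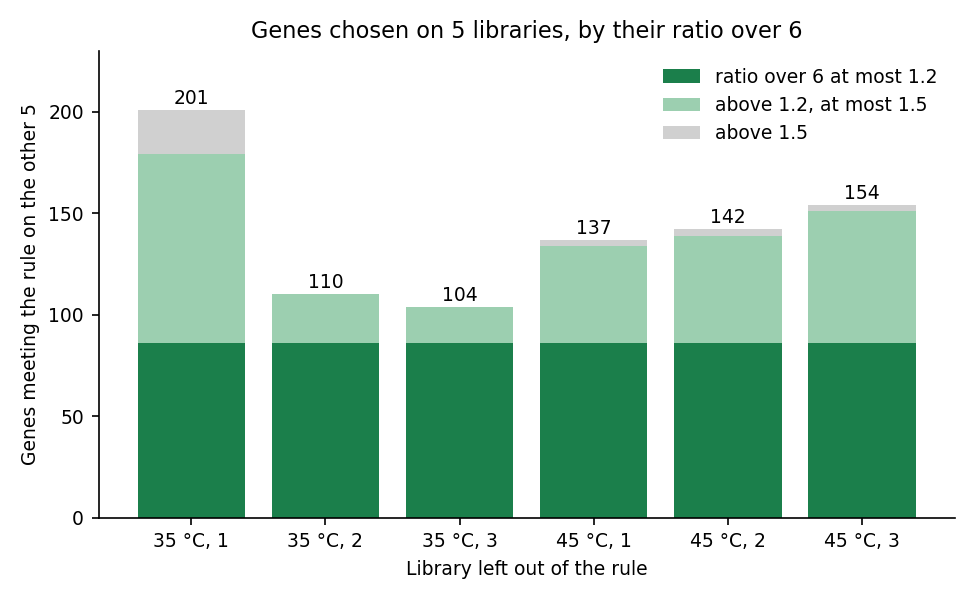
Number of genes meeting the rule on 5 libraries (vertical) when the library named below the bar is left out, split by the ratio those genes have over all 6. Each bar rests on the same 86 genes with a ratio of at most 1.2; the total runs from 104 to 201 genes, with the largest when the first bee at 35 °C is left out.

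Most genes that were level among bees of 1 temperature were not level at the other. They were level there more often than genes with a wider ratio. Outside the named exclusions, 1009 genes had a mean of at least 1000 and a ratio of at most 1.2 among the 3 bees at 35 °C. Of these, 44.2% were also within 1.2 among the bees at 45 °C, as were 29.7% of the 1379 genes with a wider ratio at 35 °C. Limma called 47 of the 1009 higher and 36 lower at 45 °C, or 8.23%, beside 15.1% of the 1379, and at an adjusted p below 0.05 with no minimum fold change the shares were 46.7% and 37.4%. The same choice at 45 °C gave 850 genes, of which 48.9% were within 1.2 among the bees at 35 °C. The share was 34.2% for the 1613 genes with a wider ratio at 45 °C. Of the 850, 15.6% were called, 121 higher and 12 lower, beside 20.4% of the 1613, 296 higher and 33 lower. The choice bears on these counts in 2 ways. The minimum mean was set at the chosen temperature alone, which favours genes that are higher there, and a small spread in 1 group favours a small p. The shares and the splits by direction are therefore given as a description. The 86 members contributed 85 of the 1009 genes and 85 of the 850.

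The gene table was used to see what lies beside the constant genes. Of their nearest neighbours on each side, 150 were listed and not members, and limma called 8 of them higher and 9 lower, or 11.3%, beside 18.0% of all genes. Their median absolute log2 fold change was 0.47, against 0.51 over all genes. Only LOC410162 and LOC414014 were members that lie next to each other. Of the neighbours chosen here for having moved most, LOC552696, beside LOC552692, had 465, 232 and 287 normalized counts at 35 °C and 3980.1, 4259 and 3532 at 45 °C, a log2 fold change of 3.63 (limma adjusted p = 7.99e-05). LOC726827, beside LOC409662, had 580.0, 299.6 and 417 against 4525, 5165 and 4792, a log2 fold change of 3.53 (limma adjusted p = 6.61e-05). In both pairs the neighbour was higher at 45 °C in every bee, while the member beside it kept a ratio of at most 1.19 over the 6 bees. These members, LOC552692 and LOC409662, were themselves lower in every bee at 45 °C, with log2 fold changes of -0.20 and -0.15. LOC551687, beside LOC410802, was the lowest, at 8053, 11396 and 11060 against 4267, 3820.2 and 2211, or -1.60 (limma adjusted p = 0.00329).

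Reads of overlapping genes may be shared in a way the files do not show, since the sources used here do not say whether counting used strand. In the table of genes, 19 of the 86 members (22.1%) overlap another listed gene, beside 31.1% of the genes with a mean of at least 1000 that the table holds. For 12 of the 19 the overlapping gene had over 10% of the member's mean. LOC412366 overlaps LOC409450, whose mean was 988% of its own, LOC102656224 overlaps LOC412601 at 155% and LOC551962 overlaps LOC551983 at 147%. Of the steadiest members, LOC409427 overlaps LOC412305, at 33.9% of its mean and a log2 fold change of -0.62, and LOC725105 overlaps LOC725150 at 50.4%. LOC412103, LOC412219, LOC410766 and LOC413842 overlap no listed gene in this table.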

How the data were processed

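RNA-seq values of 6 midguts, 3 at 35 °C and 3 at 45 °C, were grouped by the sample labels. Reads were trimmed by the authors, aligned to build Amel 4.5 and counted on genes. The submitters' processing notes name Trimmomatic 0.36, STAR, Subread and DESeq2 without their settings. The deposited signal values are those counts after division by the DESeq2 size factor of the library, in 3 tables normalized together. From the steps between values, reads were recovered, and 100% of values were within 0.01 of a whole read. Recalculated size factors equalled the recovered ones, 0.812 to 1.18.

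The 86 members and the gene lists were chosen with earlier results of these data known. Log2(value + 1) was compared with limma 3.58.1 in R 4.3.3 (trend, no block), with Benjamini-Hochberg adjustment over 10151 genes. DESeq2 1.42.0 and edgeR 4.0.16 on the recovered reads, other scalings, limits, pseudocounts and filters, the replicate number as a block and each library left out in turn were alternatives. The fits were tested on simulated data. Bees of a group were separate samples, and no pair agreed within sampling noise (chi-square of at least 44.8 per gene). With 3 bees against 3, an exact permutation test cannot give a p below 0.1.

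The text names the 10 members of lowest ratio, the 5 of highest mean, the 5 of largest absolute fold change, the genes nearest each limit and the reference genes found by symbol. Other genes were named after their values were seen. Lists of gene functions and of promoter motifs could not be applied, since the table of genes (Amel_HAv3.1, holding 9300 of the IDs) gives the members neither names nor sequences. Its assembly differs from that of the counts, so no coordinates are given.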

Additional observations from a re-analysis of the deposited data

How the results depend on the processing

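Under the scaling, pseudocount, filter and tool alternatives the 86 genes were kept fixed for fold changes and counts of calls, and under other limits or with a library left out the genes were chosen again. The number of constant genes was 23 with library size alone, 31 with library size without the 20 highest genes and 51 with quantile normalization. In that order, 58, 25 and 4 of the 86 had an adjusted p below 0.05, and their median log2 fold change was -0.40, -0.29 and -0.18. Library size alone also turned the split over all genes, with 829 called higher and 1616 lower against 1327 and 501, and 1194 and 801 were called lower under the other 2. The number of constant genes was 29 with the limit on the ratio lowered by 0.05, 159 with it raised by 0.05, 131 at a mean of at least 500 and 50 at 2000. With each library left out it ran from 104 to 201, and moved most without bee 1 at 35 °C (201) and without bees 1, 2 and 3 at 45 °C (137, 142 and 154). The count of members with an adjusted p below 0.05 was 0 under the other alternatives.

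RpL32 turned to -0.29 with library size alone, -0.17 without the 20 highest genes and -0.11 with quantile normalization, and Ppib to -0.27, -0.15 and -0.11. Quantile normalization turned EF1a-F2 to -0.79 and Argk to -0.064. On the recovered reads DESeq2 called 1379 genes higher and 533 lower, and edgeR 1333 and 496. For the named members, 370 of the values under alternatives moved by less than the spread between bees and 86 moved by more, each under a scaling. Beyond the scalings' own construction, the cause was not tested. Same-numbered bees had correlations of 0.15, 0.02 and 0.01 between their deviations, where bees of unlike number had -0.11 to 0.12. Such correlations cannot settle whether the numbers pair the bees. With a replicate block, 0 members had an adjusted p below 0.05, the median log2 fold change was -0.02, and 1348 genes were called higher and 524 lower. A ratio of highest to lowest over 6 bees can only grow as bees are added.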
